A study of Mus musculus with 42 samples.

Results

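The transcripts of 10 tetraspanins, Cd81, Cd9, Cd63, Cd82, Cd37, Cd53, Cd151, Tspan4, Tspan14 and Tspan31, were followed in RNA-seq libraries of murine bone-marrow-derived macrophages (BMDM). Their rows were found in the deposited count table by matching Ensembl identifiers to these symbols, which gave 10 of 37310 rows, and all 10 were among the 11624 genes that passed the filter on low counts. The genes were chosen by name, with earlier results of these data known. Among those results was the lower level of Cd81 in libraries labelled KO in 3 conditions, so the Cd81 genotype differences are given as a description, with no test. The 10 genes are also the 10 with the highest mean level per kb of exon among the 19 family genes tested. The lowest of them, Cd82, averaged 16.7 CPM (a counts-per-million scale) per kb over 42 libraries, and the highest family gene left out, Tspan3, averaged 13.7.

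BMDM were grown from femur and tibia marrow of male mice in medium conditioned by L929 cells, which all 42 libraries share. The 14 groups of 3 libraries each combine a genotype label, WT or KO, with untreated cells at 0, 2 or 24 h (Control), with the saturated fatty acid palmitate at 2 or 24 h, or with bacterial lipopolysaccharide (LPS) at 2 or 24 h. KO stands for a myeloid deletion of Irf5, made by crossing Irf5 flox/flox mice with LysM-Cre mice, in which the Lyz2 locus drives Cre; which of these alleles the WT mice carried was not given in the sources used here. Nothing in the labels says whether the 3 libraries of a group came from separate mice or cultures, so p-values measure the spread between these libraries, which may be technical.

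Tetraspanins are small membrane-spanning proteins that gather integrins, immunoglobulin-type proteins and membrane proteases into patches of the plasma and endosomal membranes. CD9, CD81 and CD63 are in wide use as markers of extracellular vesicles. In macrophages, CD9 and CD81 are known to hold back cell fusion, CD37 and CD53 are restricted to blood cells, and TSPAN14 belongs to the group of tetraspanins that carry the protease ADAM10 to the cell surface.

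On the GRCm38 build with GENCODE gene models, 4 members lie on chromosome 7: Cd37 (chr7:45233632-45239115, minus strand), Cd151 (chr7:141467392-141471473, plus), Tspan4 (chr7:141475240-141493427, plus) and Cd81 (chr7:143052739-143067934, plus). Cd151 and Tspan4 are direct neighbours. Cd63 (chr10:128900989-128912822, plus) and Tspan31 (chr10:127067280-127070264, minus) share chromosome 10. Cd82 lies at chr2:93419111-93463140 (minus), Cd53 at chr3:106759921-106790149 (minus), Cd9 at chr6:125460266-125494791 (minus) and Tspan14 at chr14:40906445-40966807 (minus). Counts here are per gene, so exons, introns and UTRs are not separated. Tspan31 shares 641 exon bases with Cdk4 and Tspan4 shares 292 with Chid1, each on the other strand. Since the strand setting of the counting was not given in the sources used here, reads from those stretches cannot be assigned to a strand, which limits the values of these 2 members.

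Stretches upstream of 4 members are shown. Cd9, Cd81 and Tspan14 had the largest falls at 24 h of LPS, and Cd53 is shown as a member that rose and has a single RefSeq window. Cd82, which rose more, has 4 windows and is not printed. Sequences are RefSeq promoter windows of GRCm38.p6, printed 5′ to 3′ on the gene's strand and cut where an annotated exon of that strand begins. Capitals mark every match, on either strand, to the searched motifs: the GC box GGGCGG, the kappaB-type motif (GGGA and TTCC with 2 free bases between them), the ISRE-type motif (GAAA repeated after 2 free bases), the AP-1 motif TGANTCA, the E-box CACGTG and the PU.1 core GAGGAA. The Cd9 stretch is chr6:125494792-125495010, the Cd81 stretch chr7:143052500-143052738, the Tspan14 stretch chr14:40966897-40967146 and the Cd53 stretch chr3:106790150-106790399. The Cd9 stretch also lies over an exon of a noncoding transcript of the other strand, Gm26728.
Cd9: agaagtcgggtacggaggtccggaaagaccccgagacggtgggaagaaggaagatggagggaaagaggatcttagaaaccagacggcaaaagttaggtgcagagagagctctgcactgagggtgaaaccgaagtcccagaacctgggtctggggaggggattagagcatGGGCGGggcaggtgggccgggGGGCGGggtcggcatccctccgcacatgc
Cd81: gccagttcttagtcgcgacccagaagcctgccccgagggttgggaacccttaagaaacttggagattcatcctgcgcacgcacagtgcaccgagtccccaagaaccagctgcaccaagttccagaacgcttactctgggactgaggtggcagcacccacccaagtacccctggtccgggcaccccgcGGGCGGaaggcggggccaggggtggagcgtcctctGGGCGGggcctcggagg
Tspan14: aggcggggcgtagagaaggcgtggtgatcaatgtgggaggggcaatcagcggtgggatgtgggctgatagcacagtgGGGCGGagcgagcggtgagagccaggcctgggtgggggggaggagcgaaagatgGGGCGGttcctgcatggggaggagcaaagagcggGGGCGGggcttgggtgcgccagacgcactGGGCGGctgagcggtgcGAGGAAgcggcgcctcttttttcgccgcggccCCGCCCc
Cd53: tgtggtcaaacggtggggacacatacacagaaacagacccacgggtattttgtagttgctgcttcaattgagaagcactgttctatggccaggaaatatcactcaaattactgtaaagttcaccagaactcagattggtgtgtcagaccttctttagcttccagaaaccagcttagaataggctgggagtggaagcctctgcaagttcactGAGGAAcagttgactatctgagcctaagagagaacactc

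All capitals in the Cd9 and Cd81 stretches are GC boxes, 2 in each, and the Tspan14 stretch holds 5 GC boxes and 1 PU.1 core. The Cd53 stretch has no GC box and 1 PU.1 core, and its GC content is 45.2%, against 61.2% for Cd9, 65.3% for Cd81, 69.6% for Tspan14 and a median of 52.4% over all RefSeq promoters. Whether GC content goes with the direction of change was not tested, and the members were mixed. Of other members that fell, the windows of Cd151 have 62.4% and 58.0% GC and those of Tspan4 68.0% and 63.2%. Tspan31, which rose, has 46.0% GC. Other windows differ from these. A further Tspan14 window, not printed, has 47.6% GC, no GC box and 3 PU.1 cores. Cd63, which fell, has 48.8% GC and no GC box. The windows of Cd82, which rose, have 58.4%, 64.4%, 49.6% and 52.4% GC, and those at 58.4% and 64.4% hold a GC box each. All 10 members matched at least 1 of 16 RefSeq windows of 250 bases upstream of a start. A GC box was found in 8 of these 16 windows, of 7 members, and 32.7% of 32851 single promoter windows of the same length hold it. A PU.1 core was found in 7 windows, of 6 members (23.3% of all windows), and the E-box in 2, of Cd37 and Tspan4 (6.02%). None of the 16 windows holds the kappaB-type motif, the ISRE-type motif or the AP-1 motif, which 1.21%, 2.98% and 6.75% of all promoters hold; these letters are then not in these windows, and nothing is said about factor binding.

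Total counts per library ran from 2848793 to 7743442, and members were counted at 95 to 4057 reads per library, so every member was well above the 3 counts taken as the detection floor. Over all genes, 2 libraries stood apart from their groups. KO LPS 2 h library 1, the shallowest of all, differed from the other libraries of its group by 9.32 and 7.76 chi-square per degree of freedom, while these differed by 2.94. WT LPS 24 h library 2 differed by 7.48 and 6.87, against 3.21. The member calls under LPS are given with and without these libraries. Of the label differences under LPS, this was done for Cd81 at 2 h and Cd9 at 24 h. Other LPS results, among them interactions, other genes, gene lists and profiles, rest on all libraries, apart from the leave-one-out counts at the end. Levels are given as CPM scaled by trimmed mean of M-values (TMM) factors. The targeted gene did not follow its label: Irf5 averaged 264 CPM (209 to 388) in the 21 libraries labelled WT and 316 CPM (267 to 430.0) in the 21 labelled KO, which are therefore called libraries labelled KO throughout. Counts per gene do not show whether the floxed exons were lost, and Irf5 shares 411 exon bases with Tnpo3 on the other strand. Lyz2, the locus of the Cre, was lower in the libraries labelled KO, at a mean of 5709 CPM (4677 to 8755) against 10238 CPM (8016 to 14570). All 7 macrophage markers checked, Lyz2 among them, were detected, at a summed 9638 to 23306 CPM. The B cell list summed to 3.59 to 13.4 CPM, the T or NK cell list to at most 3.46 CPM, the dendritic cell list to 0.357 to 10.2 CPM and the erythroid list to at most 0.518 CPM, and no list but the erythroid list (Hbb-bs) held a gene at 0 in every library. LPS and palmitate both acted on these cultures: Tnf was higher by 4.71 (log2, SE 0.06) after LPS at 2 h, and Plin2, a lipid droplet coat gene, by 2.01 (SE 0.04) after palmitate at 24 h.

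Compared per kb of exon, Cd53 was the most abundant member, with a mean of 149 CPM per kb over the 42 libraries, followed by Cd63 at 122.5 and Cd9 at 57.0. The other 7 members lay close together, between 24.9 (Tspan31) and 16.7 (Cd82). These levels placed Cd53 above 98.3% and Cd82 above 79.1% of the genes tested. The most variable member across groups was Cd9, whose highest group mean was 5.36 times the lowest, and Cd81 came next at 3.44 times. Tspan14 (2.03), Cd82 (1.92) and Cd63 (1.80) followed, and Cd37, a leukocyte tetraspanin, was the steadiest at 1.33.

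**Figure D1:**
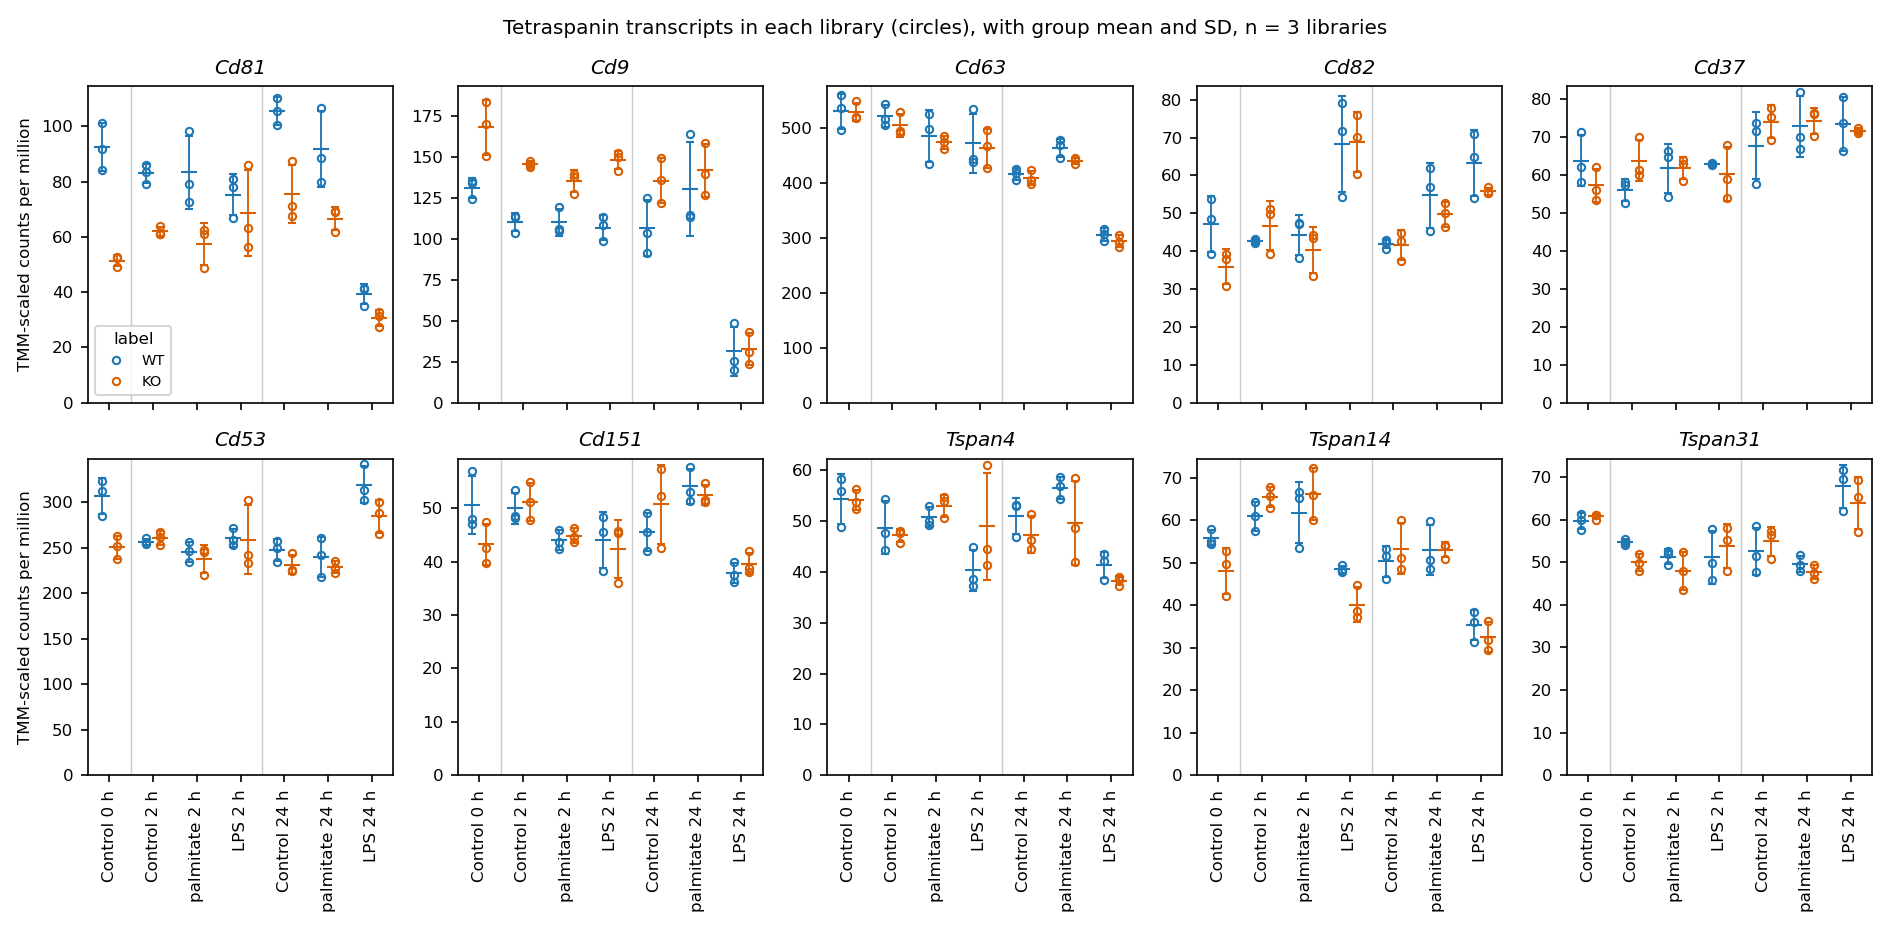
TMM-scaled CPM of each member (vertical axes from 0, different scales) in the 7 conditions, for libraries labelled WT (blue) and KO (orange); circles are single libraries, bars the group mean and SD of 3. Cd9 and Cd81 dropped to their lowest levels in the 6 libraries of LPS at 24 h, and the LPS libraries at 24 h also form the 2 lowest groups of Cd63, Cd151 and Tspan14.

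The main comparisons asked how each treatment moved these genes at 2 and 24 h, against Control of the same time and averaged over both genotypes. Each difference is a log2 fold change from an edgeR quasi-likelihood fit of all 42 libraries, and a gene is called where the Benjamini-Hochberg adjusted p over all 11624 genes is under 0.05. Because these are bulk cultures, fewer cells of a kind and less RNA per cell cannot be told apart. LPS and palmitate comparisons of the same time share their Control libraries, so their values stand side by side only.

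After 24 h of LPS, 9 of the 10 members were called, 3 higher and 6 lower. Over all genes tested 52.1% were called in this comparison, 25.6% higher and 26.5% lower, so a large share of members called is common to genes here. The median difference of the members was -0.31, against -0.01 for all genes. The sizes differed between members: Cd9 and Cd81 fell by far more than the rest, Tspan14, Cd63, Cd151 and Tspan4 fell less, and Cd82, Cd53 and Tspan31 rose.

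Cd9, a vesicle marker and partner of integrins, was read at 91.1, 103 and 125 CPM in the WT Control libraries at 24 h and at 20.2, 25.6 and 48.3 CPM in the WT LPS libraries. In libraries labelled KO it was read at 121.5, 136 and 149 CPM in Control and at 23.7, 30.9 and 43.3 CPM with LPS. All 6 LPS libraries lay below all 6 Control libraries. The log2 difference was -1.91 (SE 0.11, adjusted p = 4.2e-20), a level 0.265 times that of Control. Taken separately, it was -1.78 in WT and -2.04 in libraries labelled KO. WT library 2 of the LPS group, in the order of the table's columns, stood above the other 2 of its group, but still below every Control library. Without it the Cd9 difference was -2.14 (SE 0.10), that of Cd81 was -1.32, and the same 9 members were called.

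Cd81, the tetraspanin best known as part of the B cell co-receptor and also an entry factor for hepatitis C virus in humans, went from 100.5, 106 and 110.4 CPM in WT Control to 35.0, 41.0 and 41.5 CPM in WT LPS at 24 h. In libraries labelled KO it went from 67.7, 71.1 and 87.6 CPM to 27.5, 31.5 and 32.9 CPM. The LPS libraries of both labels again lay below all Control libraries. The log2 difference was -1.36 (SE 0.09, adjusted p = 3.24e-19), 0.390 times the Control level, with -1.43 in WT and -1.29 in libraries labelled KO.

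Tspan14, the ADAM10 carrier, was at 46.1, 51.6 and 53.3 CPM in WT Control and at 31.4, 36.1 and 38.4 CPM in WT LPS at 24 h. In libraries labelled KO the values were 48.6, 51.1 and 60.1 CPM in Control and 29.5, 31.9 and 36.4 CPM with LPS. No LPS library reached a Control library, and the log2 difference was -0.60 (SE 0.07, adjusted p = 1.38e-09). Adam10 itself fell by 0.68 on the log2 scale (SE 0.04, adjusted p = 2.19e-19), from a mean of 269 to 171 CPM in WT and from 259 to 157 CPM in libraries labelled KO.

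Cd63, the tetraspanin of late endosomes and lysosomes, fell by 0.46 on the log2 scale (SE 0.05, adjusted p = 3.68e-12). It was read at 405, 419 and 425 CPM in WT Control and at 294, 308 and 316 CPM in WT LPS, and at 398, 406 and 423 CPM against 284, 293 and 306 CPM in libraries labelled KO. The groups did not overlap. Cd151, which binds laminin-binding integrins, fell by 0.32 (SE 0.07, adjusted p = 0.000174), with group means of 38.0 CPM (WT LPS) and 39.7 CPM (KO LPS) against 45.6 and 50.8 CPM in Control. Its chromosomal neighbour Tspan4 fell by 0.30 (SE 0.08, adjusted p = 0.000866), with group means of 41.4 and 38.2 CPM against 51.0 and 47.3 CPM. For both genes the LPS libraries of each label lay below the Control libraries of that label.

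Cd82, a tetraspanin first described as a suppressor of metastasis, rose at 24 h of LPS from 40.6, 42.2 and 42.9 CPM to 54.0, 65.0 and 71.1 CPM in WT and from 37.3, 42.7 and 44.8 CPM to 55.2, 55.4 and 56.9 CPM in libraries labelled KO. The groups did not overlap, and the log2 difference was 0.51 (SE 0.09, adjusted p = 4.45e-06). Cd53, a leukocyte tetraspanin, rose by 0.34 (SE 0.05, adjusted p = 1.67e-07), from 234, 249.8 and 257 CPM to 303, 313 and 342 CPM in WT and from 225, 226 and 244 CPM to 265, 288 and 300.3 CPM in libraries labelled KO. Here too every LPS library lay above the Control libraries of its label. Tspan31 rose by 0.30 (SE 0.06, adjusted p = 7.42e-05). Its gene shares 641 exon bases with Cdk4 on the other strand, and reads from there cannot be assigned to a strand. In WT the Tspan31 libraries separated, at means of 67.8 against 52.6 CPM, while in libraries labelled KO the ranges met, at 57.2 to 69.2 CPM with LPS and 50.9 to 57.3 CPM in Control, and the difference there missed the threshold (0.21, adjusted p = 0.0509). Cd37 alone was not called at 24 h of LPS, with a difference of 0.04 (SE 0.07, adjusted p = 0.657).

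**Figure D2:**
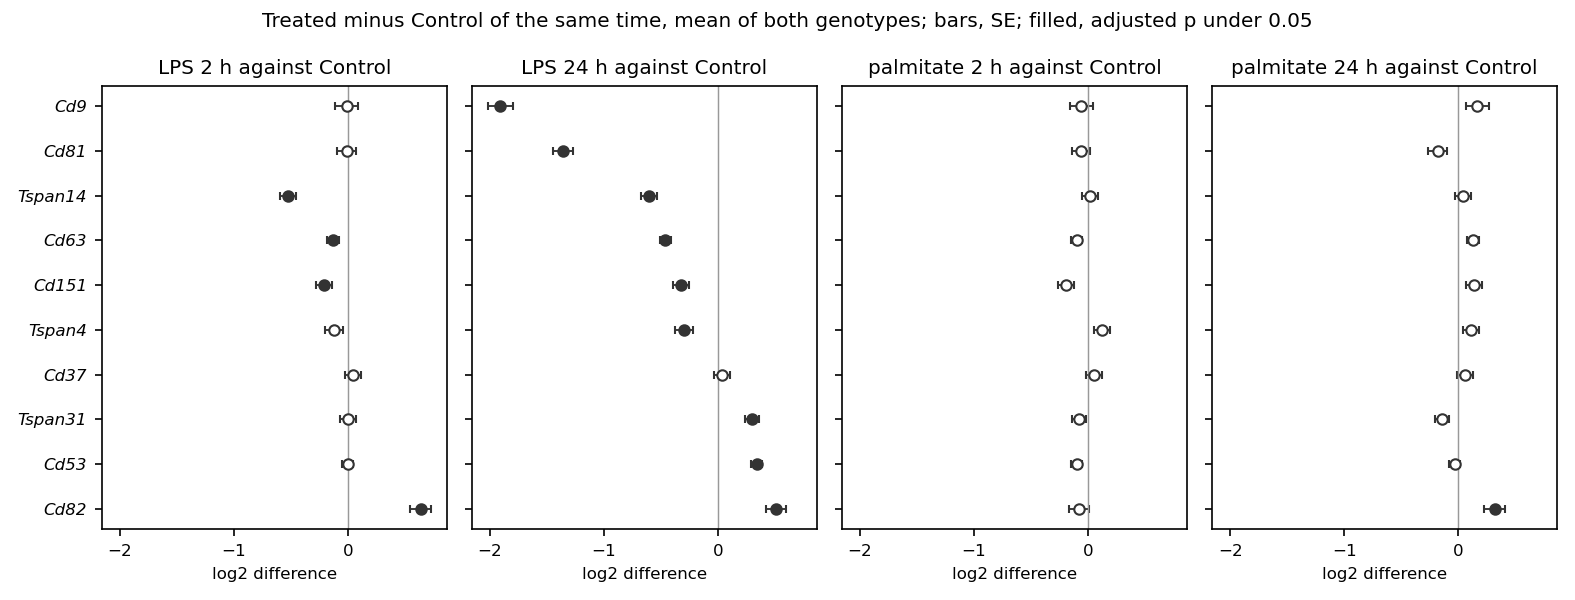
Log2 difference (horizontal axes) between treated and Control libraries of the same time for each member, averaged over both genotypes, with the SE as bars; filled points have an adjusted p under 0.05. After LPS at 24 h the points run from -1.91 for Cd9 to 0.51 for Cd82, after LPS at 2 h from -0.52 for Tspan14 to 0.64 for Cd82, and palmitate moved members by at most 0.32.

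Summed levels of marker lists differed with LPS at 24 h as well. The granulocyte precursor list (6 of 6 genes in the table, 3 tested) summed to 27.7 to 38.4 CPM in WT Control and 6.78 to 15.9 CPM in WT LPS, and to 73.8 to 118 CPM against 20.7 to 38.5 CPM in libraries labelled KO. The megakaryocyte and platelet list, a lineage rich in Cd9, summed to 45.2 to 57.8 CPM in WT Control and 66.0 to 73.9 CPM in WT LPS, and to 85.4 to 94.5 CPM against 53.3 to 86.0 CPM in libraries labelled KO. The macrophage list summed to 15940 to 16580 CPM in WT Control and 18011 to 23306 CPM in WT LPS, and to 10605 to 11215 CPM against 13243 to 13460 CPM in libraries labelled KO. That list includes Lyz2, the locus of the Cre, which averaged 11200 CPM in WT Control and 12100 CPM in WT LPS. In libraries labelled KO Lyz2 averaged 5880 and 5570 CPM, so the label gap in these sums includes the Lyz2 difference. The fibroblast list summed to 2.74 to 45.1 CPM in WT Control and 0.171 to 2.48 CPM in WT LPS. In libraries labelled KO it summed to 39.45 to 132.9 CPM in Control and 0.56 to 174.6 CPM with LPS, which overlap. The part of the listed cells in the member differences was not tested.

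At 2 h of LPS, 4 members were called, 1 higher and 3 lower, where 34.2% of all genes were called (19.0% higher, 15.2% lower). The median over the members was -0.01, against -0.02 for all genes. Cd82 rose already at this time, from 42.03, 42.8 and 43.1 CPM to 54.3, 71.8 and 79.0 CPM in WT and from 39.3, 49.9 and 51.0 CPM to 60.3, 70.2 and 75.9 CPM in libraries labelled KO. No library overlapped between groups, and the log2 difference was 0.64 (SE 0.09, adjusted p = 8.5e-08). Tspan14 fell from 57.6, 60.9 and 64.3 CPM to 47.9, 48.0 and 49.5 CPM in WT and from 62.9, 65.6 and 67.8 CPM to 37.2, 38.7 and 44.7 CPM in libraries labelled KO. Again the groups were apart, with a difference of -0.52 (SE 0.07, adjusted p = 8.34e-08). The fall was -0.33 in WT and -0.72 in libraries labelled KO, and the test of that contrast between labels gave -0.39 (SE 0.15, edgeR adjusted p = 0.538), which did not pass. Without KO LPS 2 h library 1 the difference was 0.67 for Cd82 and -0.57 for Tspan14, Cd63 and Cd151 were no longer called, and Tspan4 was (-0.21, SE 0.08, adjusted p = 0.0277).

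The calls of Cd63 and Cd151 at 2 h of LPS lay near the threshold. Cd63 was lower by 0.13 on the log2 scale (SE 0.05, adjusted p = 0.0221) and Cd151 by 0.21 (SE 0.07, adjusted p = 0.0229). Neither was called within WT (adjusted p = 0.117 and 0.288) or within the libraries labelled KO (0.192 and 0.074). Leaving out WT Control library 2, WT LPS library 1 or 3, or KO LPS library 1 took Cd63 to adjusted p-values of 0.0643, 0.0568, 0.0846 and 0.0551. Leaving out WT Control library 2, WT LPS library 1, KO Control library 3 or KO LPS library 1 took Cd151 to 0.0653, 0.0601, 0.0554 and 0.0639. The differences themselves stayed close, at -0.12 to -0.11 for Cd63 and -0.19 to -0.18 for Cd151. Cd9 and Cd81, the members with the largest late falls, were not called: the differences were -0.01 (SE 0.10) for Cd9 and -0.01 (SE 0.08) for Cd81. In WT the means were 107 against 110.2 CPM for Cd9 and 75.2 against 83.0 CPM for Cd81. In libraries labelled KO they were 148 against 145 CPM and 68.5 against 62.0 CPM. The Cd81 value averages -0.13 in WT and 0.11 in libraries labelled KO, where the shallow library 1 (86.1 CPM) lay above the others (56.3 and 63.3 CPM). Cd37 (0.05), Cd53 (0.00), Tspan31 (0.00) and Tspan4 (-0.12) were not called either.

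The change of the LPS response between 2 and 24 h was tested directly, as the difference at 24 h minus the difference at 2 h. It was called for 5 members, 2 higher and 3 lower, against 46.3% of all genes (21.7% higher, 24.5% lower). Cd9 (-1.91, SE 0.15, adjusted p = 5.2e-15) and Cd81 (-1.35, SE 0.12, adjusted p = 1.34e-13) moved late, as their values at 2 h already show. Cd63 fell further (-0.33, SE 0.07, adjusted p = 3.83e-05), and Cd53 (0.33, SE 0.07, adjusted p = 0.000142) and Tspan31 (0.29, SE 0.09, adjusted p = 0.00715) rose late. Without KO LPS 2 h library 1, or without WT LPS 24 h library 2, the same 5 members were called, with -1.89 and -2.12 for Cd9 and -1.26 and -1.30 for Cd81. In libraries labelled KO alone the Tspan31 value was 0.12 (adjusted p = 0.53). For Cd82 the response at 24 h minus that at 2 h was -0.13 (SE 0.13, adjusted p = 0.432) and for Tspan14 it was -0.08 (SE 0.11, adjusted p = 0.569), so their early difference was not found to grow or shrink at this precision.

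Palmitate moved few genes and few members. At 2 h no member was called, against 0.542% of all genes; 2 members, Cd63 (-0.10, edgeR adjusted p = 0.614) and Cd151 (-0.19, edgeR adjusted p = 0.43), had an unadjusted p under 0.05, and DESeq2 called 0. At 24 h 1 member was called, Cd82, against 2.57% of all genes, and 4 had an unadjusted p under 0.05. Beside Cd82 these were Cd63 (0.13, edgeR adjusted p = 0.134), Tspan31 (-0.14, edgeR adjusted p = 0.375) and Cd81, given below. The Cd63 libraries with palmitate lay above the Control libraries in both labels. Cd82 was read at 45.2, 57.0 and 62.0 CPM in the WT palmitate libraries, above WT Control (40.6 to 42.9 CPM), and at 46.3, 50.1 and 52.6 CPM in libraries labelled KO, above their Control (37.3 to 44.8 CPM). The groups were apart in both labels, but the edgeR difference of 0.32 (SE 0.09, adjusted p = 0.0455) lay near the threshold. It was lost, at adjusted p-values from 0.067 to 0.177, when any of 9 of the 12 libraries was left out, all but WT palmitate library 2, KO Control library 3 and KO palmitate library 3. At the same time point Cd81, which fell under LPS, differed by -0.18 (SE 0.08, adjusted p = 0.304) and Cd9 by 0.17 (SE 0.10, adjusted p = 0.545) under palmitate. The change of the palmitate response between 2 and 24 h was called for 0 members, against 1.28% of all genes; 3 had an unadjusted p under 0.05, and DESeq2 called 1. These 3 were Cd82 (0.40, SE 0.13, adjusted p = 0.142), Cd151 (0.33, SE 0.10, adjusted p = 0.103) and Cd63 (0.23, SE 0.06, adjusted p = 0.0598).

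Time in untreated culture was compared with Control at 0 h, over both genotypes. At 2 h 2 members were called, against 16.7% of all genes: Tspan14 was higher by 0.28 (SE 0.07, adjusted p = 0.00247) and Tspan31 lower by 0.20 (SE 0.06, adjusted p = 0.0182). Tspan14 went from 54.4, 55.2 and 58.0 CPM to 57.6, 60.9 and 64.3 CPM in WT, which overlap, and from 42.2, 49.6 and 52.7 CPM to 62.9, 65.6 and 67.8 CPM in libraries labelled KO, which do not. In WT alone neither was called (adjusted p = 0.458 and 0.397), and Cd53 was (-0.26, adjusted p = 0.00826), against -0.10 over both genotypes (adjusted p = 0.189). The Tspan31 call was lost without KO Control 2 h library 3 (adjusted p = 0.0616). At 24 h 5 members were called, 2 higher and 3 lower, against 16.5% of all genes (7.9% higher, 8.62% lower). Cd63 fell by 0.36 (SE 0.05, adjusted p = 2.69e-08), from means of 531 to 416 CPM in WT and from 529 to 409 CPM in libraries labelled KO, and Cd53 fell by 0.22 (SE 0.05, adjusted p = 0.00166), with -0.31 in WT and -0.12 in libraries labelled KO (adjusted p = 0.402). Cd81 rose by 0.37 (SE 0.08, adjusted p = 0.000659), with 0.19 in WT (adjusted p = 0.295) and 0.55 in libraries labelled KO (adjusted p = 0.00119).

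Calls of Cd37 and Cd9 at 24 h of untreated culture were less firm. Cd37 rose by 0.23 (SE 0.07, adjusted p = 0.0162), a call that did not hold without WT Control 0 h library 2 (adjusted p = 0.0603) or WT Control 24 h library 3 (0.0537). Its difference was 0.08 in WT (adjusted p = 0.668) and 0.37 in libraries labelled KO (adjusted p = 0.00901). Cd9 fell by 0.29 (SE 0.10, adjusted p = 0.0344). That call was lost in DESeq2 (adjusted p = 0.116) and without any of 8 of the 12 libraries (adjusted p-values 0.0633 to 0.116), namely libraries 1 and 2 of WT Control 0 h, of WT Control 24 h and of KO Control 24 h and libraries 1 and 3 of KO Control 0 h.

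The study compared genotypes within each condition. As said above, the Cd81 values are a description. Cd81 was lower in libraries labelled KO in all 7 conditions, by between 0.18 and 0.85 on the log2 scale. At Control 0 h it was read at 84.1, 92.0 and 101 CPM in WT and at 49.1, 52.3 and 52.5 CPM in libraries labelled KO. At Control 24 h the values were 100.5, 106 and 110.4 CPM against 67.7, 71.1 and 87.6 CPM, and at LPS 24 h 35.0, 41.0 and 41.5 CPM against 27.5, 31.5 and 32.9 CPM. Counts of conditions with the labels apart, here and below, are given without the share over all genes and only describe. The libraries of the 2 labels were apart in 6 conditions. They overlapped at LPS 2 h, where a KO library at 86.1 CPM lay above all 3 WT libraries (66.8, 77.9 and 80.9 CPM) and the difference was the smallest, -0.18 (SE 0.12). That library is library 1, the shallow one, which was also the highest of its group for Cd53 (302 CPM) and Tspan4 (61.0 CPM). The other KO libraries were at 56.3 and 63.3 CPM, below all WT libraries, and without library 1 the difference was -0.35 (SE 0.12).

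Cd9 went the other way. It was higher in libraries labelled KO in all 7 conditions, by between 0.08 and 0.46 on the log2 scale. The libraries were apart in 4 of them, but Cd9 was called in none of the 7 in the main fit. At Control 2 h it was read at 104, 113 and 114 CPM in WT and at 144, 145 and 147 CPM in libraries labelled KO, with a difference of 0.40 (SE 0.14, edgeR adjusted p = 0.244). At LPS 2 h the values were 98.3, 109 and 113 CPM against 141.5, 150.1 and 152 CPM (0.46, SE 0.15, edgeR adjusted p = 0.163). At LPS 24 h, where Cd9 is low, the labels did not separate (0.08, SE 0.18); without WT LPS 24 h library 2 the difference was 0.53 (SE 0.18, edgeR adjusted p = 0.375). At Control 2 h, 1 of the 9 members other than Cd81 was called higher in libraries labelled KO under other settings. These kept all genes with at least 1 count, or fitted only the compared libraries.

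Of the 9 members other than Cd81, 2 were called between labels at Control 0 h, both lower in libraries labelled KO, where 12.5% of all genes were called: Cd53 (-0.29, SE 0.07, adjusted p = 0.00401) and Cd82 (-0.39, SE 0.13, adjusted p = 0.0418). Cd53 was read at 285, 312 and 323 CPM in WT and at 237, 251.2 and 263 CPM in libraries labelled KO, with no overlap. Cd82 was read at 39.3, 48.5 and 53.9 CPM against 30.7, 37.8 and 39.2 CPM, nearly touching. The Cd53 call was lost without KO library 3 (adjusted p = 0.0539). The Cd82 call was lost without WT library 1 or 3 or any of the 3 KO libraries (adjusted p-values 0.0565 to 0.266). In the other 6 conditions none of these 9 members was called, by edgeR in the main fit or by DESeq2. The share of all genes called there was 0.49% at Control 2 h, 0.146% at palmitate 2 h, 0.465% at LPS 2 h, 0.12% at Control 24 h, 0.0688% at palmitate 24 h and 0.146% at LPS 24 h. The numbers of the 9 with an unadjusted p under 0.05 in edgeR were 1, 1, 3, 1, 0 and 1 in this order.

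**Figure D3:**
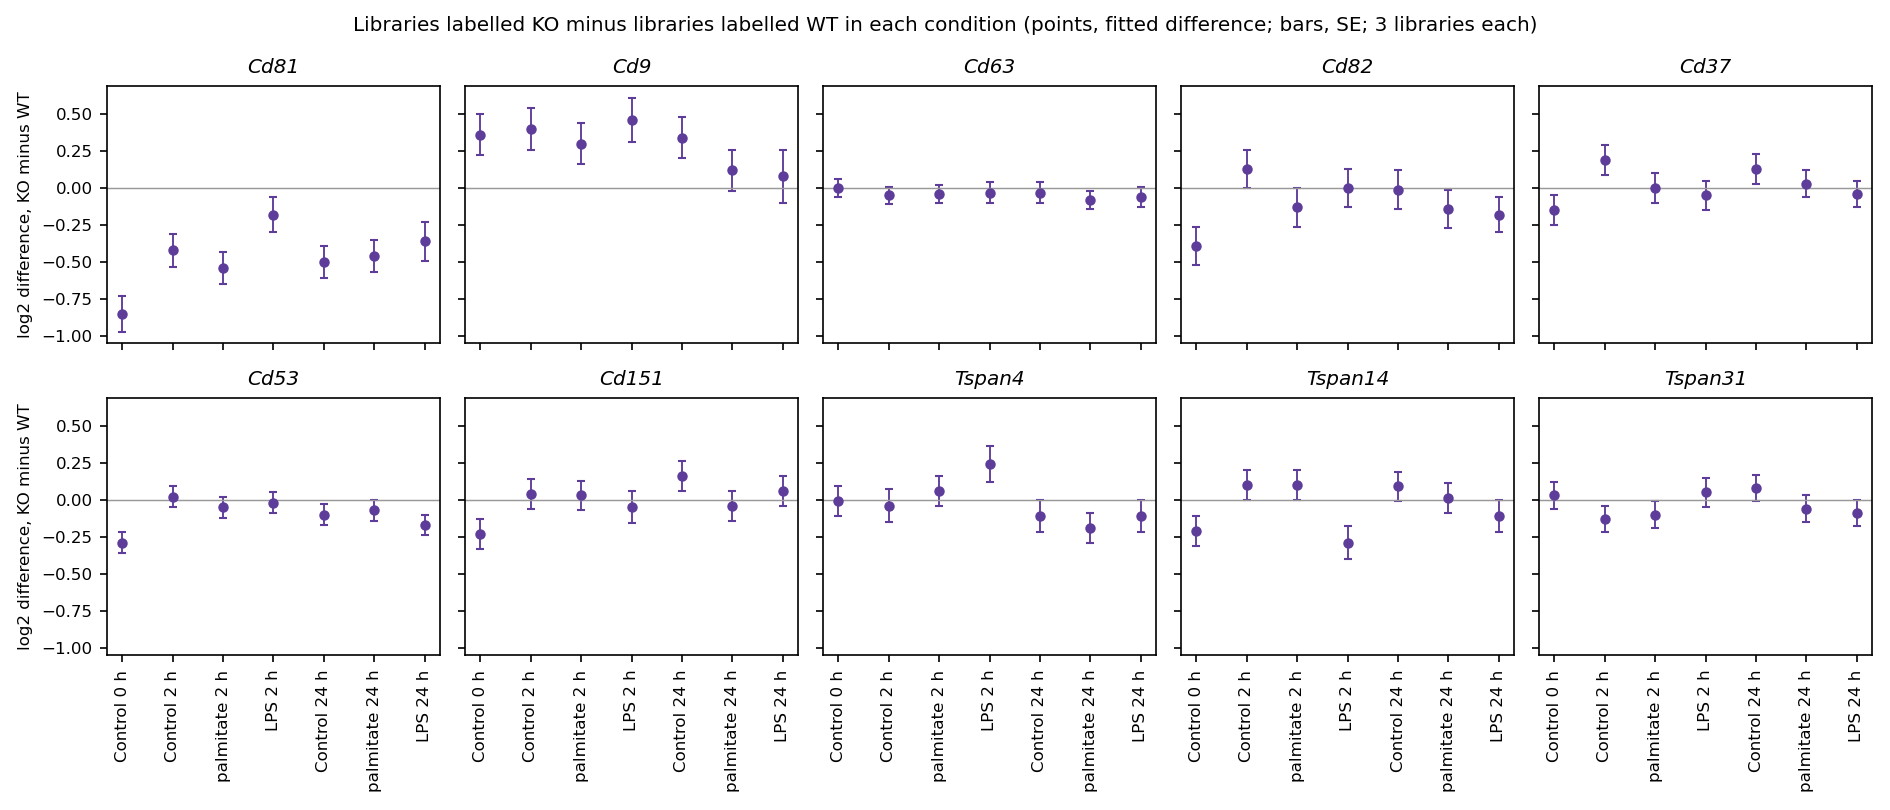
Log2 difference (vertical axis) between libraries labelled KO and WT in each of the 7 conditions, as fitted in edgeR, with the SE as bars, 3 libraries per label and condition. Cd81 lies below 0 in all 7 conditions (-0.85 to -0.18), Cd9 above 0 in all 7 (0.08 to 0.46), and Cd63 between -0.08 and 0.00.

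Cd63 was nearly flat between the labels, with differences of -0.08 to 0.00 and overlapping libraries in 6 of 7 conditions. Marker lists differed between the labels too: the granulocyte precursor list summed to 27.7 to 38.4 CPM in WT and 73.8 to 118 CPM in libraries labelled KO at Control 24 h. The fibroblast list summed to 0.529 to 0.904 CPM against 42.1 to 69.2 CPM at Control 0 h, and the labels were also apart at Control 2 h and LPS 2 h. They overlapped at Control 24 h, LPS 24 h and both palmitate times. At palmitate 2 h the list ran from 0.0 to 39.4 CPM in WT and from 0.777 to 305.5 CPM in libraries labelled KO. At palmitate 24 h it ran from 0.346 to 10.1 CPM against 0.0 to 7.32 CPM. The part of these lists in the member differences was not tested. Whether the label changes the response to a treatment was tested as an interaction. None of the 10 members was called in any of the 4 interactions in edgeR, against 0.0% (LPS 2 h), 0.0086% (LPS 24 h), 0.0% (palmitate 2 h) and 0.0% (palmitate 24 h) of all genes; at an unadjusted p under 0.05 there was 1 member, Tspan14 at LPS 2 h, and DESeq2 called 0. The label difference at Control 0 h minus that at Control 2 h was called in edgeR for 0 of the 9 members other than Cd81 (4.77% of genes, 4 members unadjusted, 1 by DESeq2), and minus that at Control 24 h also for 0 (1.83%, 4 unadjusted, 0 by DESeq2).

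Of 33 tetraspanin family symbols listed, 31 were in the table and 19 were tested; the 12 others reached at most 8 counts in any library. Beyond the 10 members, 9 family genes were tested, and 4 of them were called in an LPS comparison. Tspan3 moved against Cd9 and Cd81: it went from 40.2, 42.3 and 51.3 CPM to 123, 127 and 145 CPM in WT at 24 h of LPS, and from 38.7, 44.0 and 47.2 CPM to 103, 103 and 109 CPM in libraries labelled KO. The groups were far apart, with a difference of 1.43 (SE 0.07, adjusted p = 3.88e-24), and at 2 h it was 0.20 (SE 0.07, adjusted p = 0.0297). Tspan13, a low transcript, fell by 2.41 at 24 h (SE 0.30, adjusted p = 1.46e-09), from 3.94 to 7.29 CPM in WT Control to 0.165 to 1.22 CPM with LPS. Tspan5, another ADAM10 carrier, fell by 0.62 (SE 0.13, adjusted p = 8.27e-05), and Tspan33, also of that group, rose by 1.24 at 2 h (SE 0.35, adjusted p = 0.0046), with WT libraries that overlapped at 0.58 to 3.64 CPM in Control and 2.41 to 7.86 CPM with LPS. In the list of the 6 ADAM10 carriers and Adam10 itself, 6 of 7 were tested: at 24 h of LPS 3 fell and none rose, and at 2 h Tspan33 rose and Tspan14 and Adam10 fell; 52.1% and 34.2% of all genes were called at these times. Over the 19 tested, 12 were called at 24 h of LPS, 4 higher and 8 lower, and 6 at 2 h, 3 in each direction, against the same shares of all genes.

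**Figure D4:**
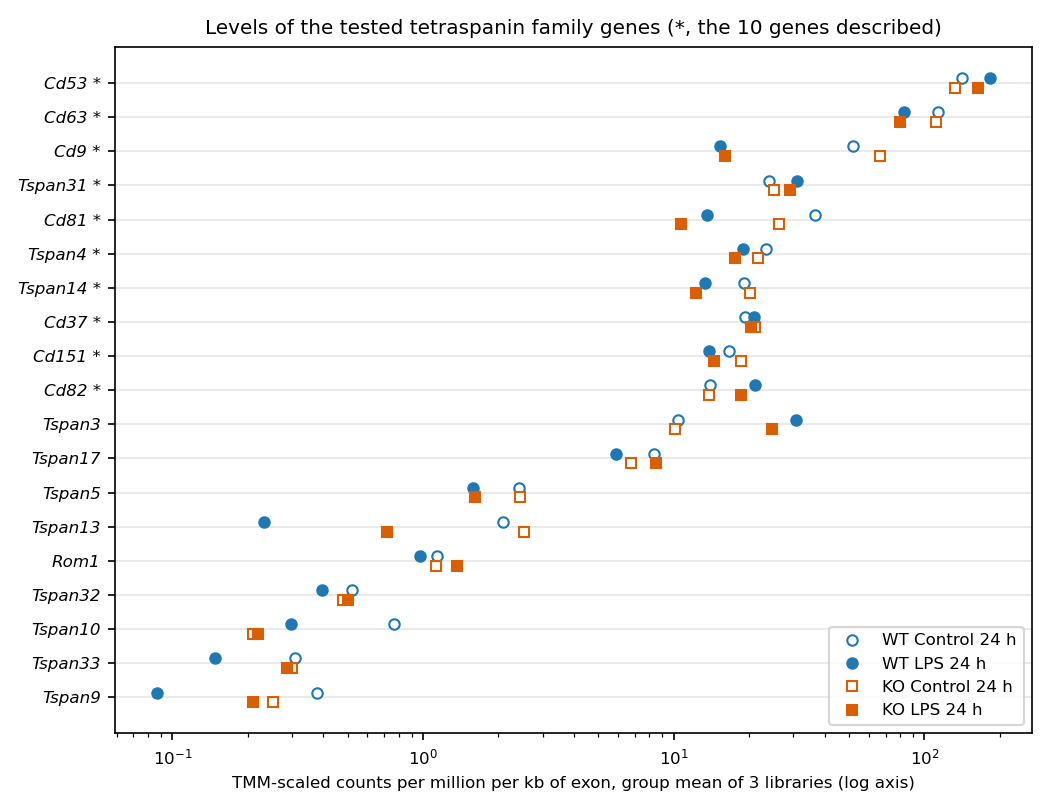
Group means (CPM per kb of exon, log axis, 3 libraries each) of the 19 tested family genes in Control at 24 h (open) and LPS at 24 h (filled), for libraries labelled WT (circles) and KO (squares); an asterisk marks the 10 members. Cd53 and Cd63 are the highest in all 4 groups, Cd9 and Cd81 shift left with LPS, and Tspan3 shifts right, past 7 members.

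Genes whose products associate with tetraspanins were counted in a list of 22 integrins, immunoglobulin-type partners, receptors and proteases, 21 of them tested. At 24 h of LPS 19 were called, 11 higher and 8 lower, where 52.1% of all genes were called, and at 2 h 12, 9 higher and 3 lower, against 34.2%. The medians were 0.13 and 0.10, against -0.01 and -0.02 for all genes. With the smallest adjusted p among those that fell at 24 h were the laminin receptor chain Itga6 (-1.87, SE 0.06, adjusted p = 5.83e-32), the beta-glucan receptor Clec7a (-1.81, SE 0.06, adjusted p = 9.54e-30) and the scavenger receptor Cd36 (-1.02, SE 0.06, adjusted p = 8.6e-22). Among those that rose were the antiviral gene Ifitm3 (4.09, SE 0.13), the leukocyte integrin chain Itgal (1.33, SE 0.05) and Itga5 (0.72, SE 0.06), the fibronectin receptor chain. Itga5 rose more at 2 h (1.95, SE 0.06, adjusted p = 4.99e-33), together with Cd44 (1.25, SE 0.05) and Itgav (0.90, SE 0.05), which both fell at 24 h (-0.76 and -0.74). Igsf8, a direct partner of CD9 and CD81 that was named after its values were seen, rose at both times, by 0.59 and 0.44, while Ptgfrn, the other such partner, fell by 0.34 and 0.35. Itga6 (-0.24) and Adam10 (-0.12) also fell at 2 h. At 24 h of palmitate 5 were called, against 2.57% of all genes: Cd36 (0.42), Cd44 (0.25) and Itgav (0.24) rose, and Clec7a (-0.30) and Itgal (-0.28) fell.

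A list of 18 genes of vesicle release and endosomes, all tested, had 11 genes called at 24 h of LPS, 7 higher and 4 lower, with a median of 0.08, where 52.1% of all genes were called. At 2 h 6 were called, 4 higher and 2 lower, against 34.2% of all genes, so both shares lay near the background. The ESCRT gene Chmp4b (0.85, SE 0.05, adjusted p = 7.74e-22) and the raft gene Flot1 (0.57, SE 0.07, adjusted p = 6.35e-10) rose at 24 h, and Rab31, an endosomal GTPase, fell (-0.95, SE 0.05, adjusted p = 1.49e-23), as did Sdcbp, which encodes the vesicle adaptor syntenin (-0.25, SE 0.04, adjusted p = 1.69e-06). The ESCRT genes Hgs (0.26, SE 0.05) and Vps4b (-0.17, SE 0.05) were also called at 24 h. At 2 h Vps4b (0.25), Hgs (0.20) and Chmp4b (0.18) rose, and Rab31 (-0.26) and Lamp2 (-0.12) fell. Under palmitate at 24 h Anxa2 alone was called (0.26, SE 0.05).

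Profiles were compared over the 14 group means, which share their treatments, so correlations are a description without a test. Among the members the closest pair was Cd9 and Cd63 (Pearson r = 0.89), followed by Cd63 and Tspan14 (0.79) and Cd53 and Tspan31 (0.78). The most opposed pair was Tspan14 and Tspan31 (-0.71). Over all genes tested, the profile most like that of Cd9 was that of Mmp12 (0.993), followed by Mamdc2 (0.991) and Pcp4l1 (0.987). For Cd81 the closest were Tmem106c (0.944), Unc5a (0.92) and 2900026A02Rik (0.919), and for Cd63 Igfbp4 (0.983), Man1c1 (0.976) and Lgals3 (0.976). For Cd82 they were Spic (0.944), Ust (0.931) and Igsf8 (0.927), and for Tspan14 Lhfpl2 (0.981), Ppp1r3b (0.967) and Fbxo32 (0.947). For Cd53 they were Sdha (0.952), Calu (0.916) and Cox4i1 (0.905), and for Tspan31 Golga3 (0.918), Bcat2 (0.911) and Itch (0.901). For Tspan4 they were Mbnl3 (0.905), Hist2h3b (0.903) and Paip2b (0.899), for Cd151 Kitl (0.89), Mospd1 (0.885) and Ptma (0.871), and for Cd37 Vcp (0.877), Usp5 (0.875) and Pgk1 (0.875).

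In the order of its 14 group means, Cd81 ran from WT Control 24 h (106 CPM) down to KO LPS 24 h (30.7 CPM). Neighbouring groups overlapped in 11 of 13 steps, and only the last 2 steps, into WT LPS 24 h (39.2 CPM) and from there into KO LPS 24 h, were free of overlap. Cd9 ran from KO Control 0 h (168 CPM) to WT LPS 24 h (31.4 CPM), and 12 of 13 steps overlapped; the step without overlap lay between WT Control 24 h (106.5 CPM) and KO LPS 24 h (32.6 CPM). For Cd82, Cd37, Cd53, Cd151 and Tspan14 all 13 steps overlapped, for Tspan4 and Tspan31 12, and for Cd63 11. The share of overlapping steps over all genes tested is not given here, so these counts are a description and not a trait of the members.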

How the data were processed

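RNA was ribodepleted and made into libraries with a stranded total RNA kit, and the submitters' processing notes name fastp 0.19.11, STAR 2.7.3a and the builds mm10 and mm9; the methods name mm10. The authors deposited raw read counts per Ensembl gene for 42 libraries. The annotation release and the strand setting of the counting are not given in the sources used here. Columns name the group only, so library numbers follow column order and pair nothing. Counts were fitted in edgeR 4.0.16 (R 4.3.3) with TMM scaling, the expression filter of edgeR at a minimum count of 10 and 1 mean per group, which left 11624 genes; SE is the log2 difference divided by the root of the quasi-likelihood F. Symbols, exon lengths and overlaps came from a GENCODE annotation of GRCm38 and upstream windows from RefSeq. DESeq2 1.42.0, the tool of the study, other scaling and filters, each genotype alone, the compared libraries alone, the study's threshold and leaving out each library were alternatives. The code was tested on simulated counts. Same-group libraries differed by 1.93 to 9.32 chi-square per degree of freedom, so none was counted as a duplicate. The precision of low transcripts is limited by totals of 2848793 to 7743442 counts. Members and lists were chosen with earlier results of these data known. All 10 members are named; of other family genes those called under a treatment, of the partner and vesicle lists the 3 with the smallest adjusted p in each direction, and per member the 3 most similar profiles.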

Additional observations from a re-analysis of the deposited data

Results flagged for a closer look

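For 5 members the response to LPS differed between 2 and 24 h by the test of that difference itself, as fitted in edgeR over both genotypes. The value at 24 h minus that at 2 h was -1.91 for Cd9, -1.35 for Cd81, -0.33 for Cd63, 0.33 for Cd53 and 0.29 for Tspan31 on the log2 scale. All 5 were called at adjusted p under 0.05, as were 46.3% of all genes.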

How the results depend on the processing

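No paired analysis was possible because the columns of the count table carry no replicate numbers. The counts of members called for LPS at 24 h (9) and for the change of the LPS response between the times (5) stayed within 1.5 times under the alternatives run for them, which leave out the study's threshold, and no member difference changed sign where it was called. For the called member differences, 158 values under the other settings kept their side of the threshold and 18 lost it, and over the leave-one-out fits 360 kept it and 42 lost it. With WT alone the count was 2 in place of 4 for LPS at 2 h, 0 in place of 1 for palmitate at 24 h, 1 (Cd53, which is not among the 2 called over both genotypes) in place of 2 for Control 2 h against 0 h and 2 in place of 5 for Control 24 h against 0 h. With the libraries labelled KO alone it was 2, 0 and 3 for LPS 2 h, palmitate 24 h and Control 24 h against 0 h. RLE scaling gave 0 for palmitate at 24 h. With all genes of at least 1 count, and with only the compared libraries, the counts were 2 and 1 in place of 0 for the change of the palmitate response, 2 and 2 in place of 0 between labels at Control 2 h, 2 and 2 in place of 1 at palmitate 2 h, 1 and 1 in place of 0 at LPS 2 h, 2 and 2 in place of 1 at Control 24 h, 1 and 1 in place of 0 at palmitate 24 h, and 3 and 2 in place of 0 for the label difference at 0 h minus that at 2 h. Only the compared libraries gave 2 in place of 1 for palmitate at 24 h. DESeq2 gave 1 in place of 0 for the change of the palmitate response, for the labels at Control 2 h and palmitate 24 h, and for the 0 h minus 2 h difference. The study's threshold, an absolute log2 difference of 1 beside an unadjusted p, was applied to the label comparisons only and gave 0 between labels at Control 0 h (3), palmitate 2 h (1) and Control 24 h (1). All label counts in this paragraph include Cd81, whose label differences are a description and not a test. Of the 9 other members, 2, 0 and 0 were called at these conditions in the main fit. DESeq2 called 0 of the 9 at Control 2 h and at palmitate 24 h. Leaving out 1 library gave 2 to 4 for LPS 2 h, 0 to 1 for palmitate 24 h and for the change of the palmitate response, 1 to 2 for Control 2 h and 3 to 5 for Control 24 h against 0 h, 1 to 3 between labels at Control 0 h, 0 to 1 at palmitate 2 h, Control 24 h and palmitate 24 h, and 0 to 2 for the 0 h minus 2 h difference. The causes were not tested. Depth limits the 12 family genes that were not tested, which had at most 8 counts in a library.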
